A study of Mus musculus with 9 samples.

Results

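The adiponectin receptors and the AMP-activated protein kinase (AMPK) were examined in mouse liver as a set of 9 genes: the receptors Adipor1 and Adipor2, the AMPK subunit genes Prkaa1, Prkaa2, Prkab1, Prkab2 and Prkag1, and the upstream genes Stk11 and Sirt1. The genes were chosen by name, with earlier results of these data known. Their probe sets were those that the platform annotation pairs with 1 of these symbols alone. All 9 were measured, by 19 of the 34945 probe sets with 1 gene symbol, among 18193 genes in all. RNA levels were compared between livers of male db/db mice (BKS.Cg-Leprdb, which carry the diabetes mutation of the leptin receptor gene) and of male BKS mice (C57BL/KSlepr+/+, littermates with the intact gene). All were 14 weeks old and had unrestricted standard chow, and the study describes obesity, diabetes and fatty liver in the db/db mice at that age. The BKS group had 5 Affymetrix arrays and the db/db group 4, with 1 sample per array. Whether the samples of a group are different mice is not said in the labels; p-values therefore measure only the spread between samples, and precision is limited by how few arrays there are.

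Adiponectin is a hormone made by fat cells. Its receptors AdipoR1 and AdipoR2 are membrane proteins of the PAQR family, and in liver AdipoR1 has been tied mainly to AMPK and AdipoR2 mainly to PPAR alpha; both have ceramidase activity. AMPK senses a shortage of ATP and switches off the synthesis of fatty acids and sterols and the production of glucose. It is a complex of a catalytic alpha subunit (Prkaa1 or Prkaa2), a beta subunit that holds the complex together and binds glycogen (Prkab1 or Prkab2) and a gamma subunit that binds AMP and ATP (Prkag1 and its relatives). LKB1, the product of Stk11, phosphorylates the alpha subunit, and SIRT1, a deacetylase that needs NAD, acts on LKB1 among many other proteins. The activity of AMPK is set mostly by phosphorylation and by bound nucleotides, which RNA arrays do not measure.

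Median signals ran from 67.4 to 110.8 per array, and any 2 arrays correlated over genes at 0.919 to 0.967. By the control signal for 18S ribosomal RNA the arrays fell into 2 sets. On 5 arrays (BKS 1 to 3, db/db 1 and db/db 2) it was 22.2 to 43.5, whereas the remaining 4, which are BKS 4, BKS 5, db/db 3 and db/db 4, had 1873 to 19771. The labels name no batch, both sets hold both genotypes, and values from a model with this split as a term are given where it changes a call. The hepatocyte marker list was bright on all arrays (summed signal 160170 to 314181 in BKS and 156389 to 257728 in db/db livers over 6 measured genes), and the adipocyte list was dim (52.0 to 263.5 and 60.1 to 174.4 over 3 genes). Of the hepatocyte markers Asgr1 was higher in db/db livers (log2 fold change 0.64, limma adjusted p = 0.0123). The summed signal of 3 erythroid markers did not overlap between the groups (2314 to 4010 in BKS and 874.9 to 2253 in db/db livers), with Alas2 lower in db/db livers (-1.20, adjusted p = 0.0114). No marker of the other lists passed between genotypes, and none was at 0 on any array. The part of these cells in the results below was not tested. In whole liver, fewer cells of a type and less RNA per cell cannot be told apart.

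None of the 9 genes passed the test between genotypes when each was represented by its probe set of highest mean signal (limma, Benjamini-Hochberg adjusted p under 0.05). Of all genes 5.49% passed, 2.89% higher and 2.6% lower in db/db livers. At an unadjusted p under 0.05 there were 2 of the 9, Prkag1 and Sirt1, against 17.6% of all genes. The median log2 fold change of the 9 was 0.02, beside 0.00 over all genes, and 5 were above and 4 below 0. For none of the 9 were the groups free of overlap, against 9.15% of all genes. When all 19 probe sets were tested, 1 passed, a probe set of Adipor1 that was 2.63-fold higher in db/db livers, against 3.48% of all probe sets. In a model with the 18S split as a further term, a block, 2 of the 19 passed, that one and the bright probe set of Prkag1, against 5.9% of all probe sets. Adjusted p-values below are over all genes for the brightest probe set of a gene and over all probe sets for the others.

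**Figure D1:**
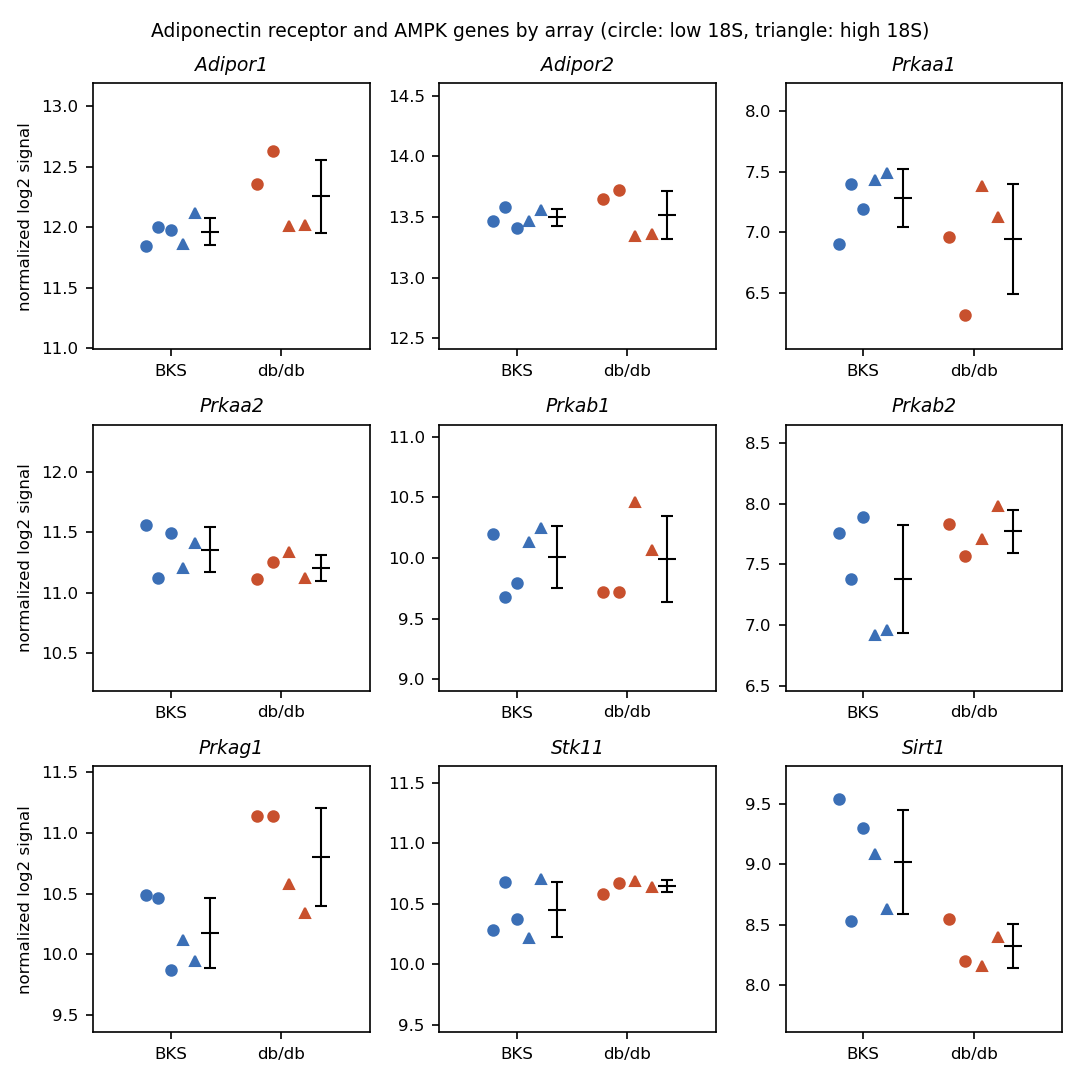
Normalized log2 signal of each gene on its probe set of highest mean, for 5 BKS arrays (blue) and 4 db/db arrays (orange); every panel spans 2.2 log2 units, circles are arrays with a low and triangles arrays with a high 18S control signal, and bars are mean ± SD. The groups overlap for all 9 genes, with Prkag1 mostly higher and Sirt1 mostly lower in db/db livers.

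The promoters of Adipor1, Prkag1 and Sirt1, the genes with the smallest p-values on any probe set, are shown as the 250 bases before the annotated start (RefSeq, build GRCm38.p6, 5′ to 3′ on the gene's strand). Windows were found for all 9 genes. Capitals mark GC boxes (GGGCGG) and E-boxes (CACGTG), the letters that several basic helix-loop-helix factors bind, on either strand.
Adipor1 (chr1:134415128-134415377, + strand): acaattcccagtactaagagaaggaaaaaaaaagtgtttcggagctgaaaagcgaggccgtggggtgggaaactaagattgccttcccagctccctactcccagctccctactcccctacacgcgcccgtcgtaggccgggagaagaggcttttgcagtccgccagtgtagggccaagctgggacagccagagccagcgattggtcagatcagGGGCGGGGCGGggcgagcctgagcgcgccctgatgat
Prkag1 (chr15:98831509-98831758, - strand): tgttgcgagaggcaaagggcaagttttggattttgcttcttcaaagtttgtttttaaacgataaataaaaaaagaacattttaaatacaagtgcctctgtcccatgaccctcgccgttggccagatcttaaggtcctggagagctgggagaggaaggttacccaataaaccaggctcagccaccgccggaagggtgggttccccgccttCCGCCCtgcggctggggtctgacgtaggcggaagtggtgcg
Sirt1 (chr10:63339036-63339285, - strand): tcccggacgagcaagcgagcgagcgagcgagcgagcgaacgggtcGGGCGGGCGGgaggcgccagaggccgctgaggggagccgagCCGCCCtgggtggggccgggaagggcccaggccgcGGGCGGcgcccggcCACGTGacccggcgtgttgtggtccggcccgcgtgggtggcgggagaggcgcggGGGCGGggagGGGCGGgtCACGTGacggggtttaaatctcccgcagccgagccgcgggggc
The Sirt1 window holds 2 E-boxes, 115 and 43 bases before the start. An E-box is found in 6.0% of the 32851 windows of this length and 2 or more in 0.43%, and Sirt1 is the only 1 of the 9 genes with any. GC boxes, which may overlap each other, stand in windows of 6 of the 9 genes and in 32.7% of all windows, with 6 matches for Sirt1, 2 for this start of Adipor1 and 1 for Prkag1. The cAMP response element TGACGTCA (1.5% of all windows) and the direct repeat that PPAR factors bind (11 of 32851 windows) were found in none of the 9. A match describes the letters only.

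Adipor1, the receptor tied mainly to AMPK, gave different sizes of change on its 3 probe sets. On probe set 1424312_at the normalized log2 signal was 8.29, 8.69, 8.59, 9.09 and 8.68 in BKS livers and 9.55, 9.85, 10.57 and 10.27 in db/db livers. Every db/db array lay above every BKS array, as for 7.42% of all probe sets. The rise was 1.39 on the log2 scale, or 2.63-fold (SE 0.23, 95% interval 0.90 to 1.88, limma adjusted p = 0.00341 over all probe sets). In deposited units the signal was 327.0 to 486.8 in BKS and 745.9 to 1452 in db/db livers. The difference of group means was 1.18 within the low and 1.54 within the high 18S arrays. The call held in all 9 fits that left out 1 array (log2 fold change 1.22 to 1.57) and was lost when the low 18S arrays were fitted alone (1.12, adjusted p = 0.0518).

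The brighter probe sets of Adipor1 moved less. On 1439017_x_at, the brightest, the values were 11.85, 12.00, 11.98, 11.86 and 12.12 in BKS and 12.36, 12.63, 12.01 and 12.02 in db/db livers, a log2 fold change of 0.29 that did not pass (SE 0.14, 95% interval -0.005 to 0.59, limma adjusted p = 0.294 over all genes). Here db/db 1 and db/db 2 stood above all BKS arrays and the other two db/db arrays among them, and the difference was 0.55 within the low and 0.02 within the high 18S arrays. Probe set 1451311_a_at had the same fold change of 0.29 (limma adjusted p = 0.440 over all probe sets), with 0.62 and -0.14 within the low and high 18S arrays. The annotation ties 1451311_a_at and 1424312_at to 1 and the same sequence record. Probe sets ending in _a_at match several transcripts of a gene, and those ending in _x_at can also bind other sequences. Whether the fold changes of these probe sets differ from each other was not tested. Because of this disagreement the call of Adipor1 as a gene depended on the probe set rule: it passed with the probe set of largest variance (1.39, adjusted p = 0.00343), without _x_at, _s_at and _a_at probe sets (1.39, adjusted p = 0.00217) and with its 3 probe sets averaged (0.66, adjusted p = 0.00675).

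**Figure D2:**
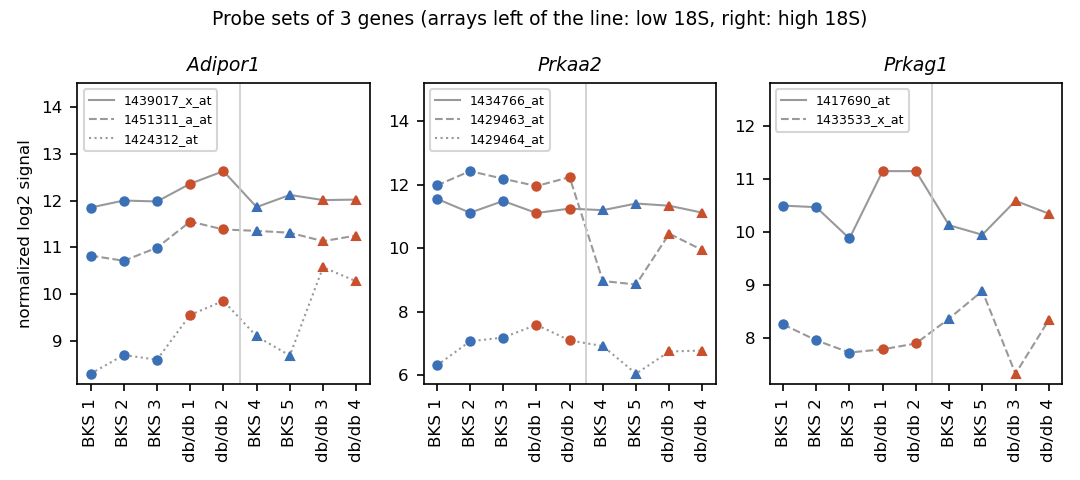
Normalized log2 signal of every probe set of Adipor1, Prkaa2 and Prkag1 on the 9 arrays, with BKS in blue and db/db in orange and the arrays of low 18S signal left of the grey line. Adipor1 1424312_at is higher in db/db livers on both sides of the line, while Prkaa2 1429463_at drops from 11.96 to 12.43 on the left to 8.86 to 10.46 on the right.

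Adipor2, the receptor tied mainly to PPAR alpha, had close levels in both genotypes. On its bright probe set, 1434329_s_at, the log2 values were 13.47, 13.58, 13.41, 13.47 and 13.56 in BKS livers and 13.65, 13.72, 13.34 and 13.36 in db/db livers. The db/db arrays lay on both sides of the BKS arrays, 2 above all of them and 2 below. The log2 fold change was 0.02 (SE 0.11, 95% interval -0.21 to 0.26, limma adjusted p = 0.948). The difference was 0.20 within the low and -0.16 within the high 18S arrays. The dimmer probe set 1437864_at stood at 0.00 (SE 0.22, adjusted p = 0.998).

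The receptors were also compared with each other within each array, which shows unequal change but not which gene has more RNA. The log2 signal of Adipor2 minus that of Adipor1, on their brightest probe sets, was 1.61, 1.58, 1.43, 1.60 and 1.44 in BKS livers and 1.29, 1.09, 1.33 and 1.35 in db/db livers. All 4 db/db arrays lay below all BKS arrays, and the difference of the means was -0.27 (1.53 ± 0.09 against 1.26 ± 0.12, SD, n = 5 and 4). By a two-sided exact permutation test over the arrays p was 0.0159, the smallest this design can give, and 0.0476 after Benjamini-Hochberg adjustment over the 3 paralog pairs compared. The call rested on the quantile normalization: without it the difference was again -0.27 but the groups overlapped (exact permutation test, adjusted p = 0.286). Centring each array leaves a difference within an array as it is. With the probe sets of each receptor averaged the difference was -0.65 and passed (exact permutation test, adjusted p = 0.0476). The difference was -0.35 within the low and -0.18 within the high 18S arrays.

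**Figure D3:**
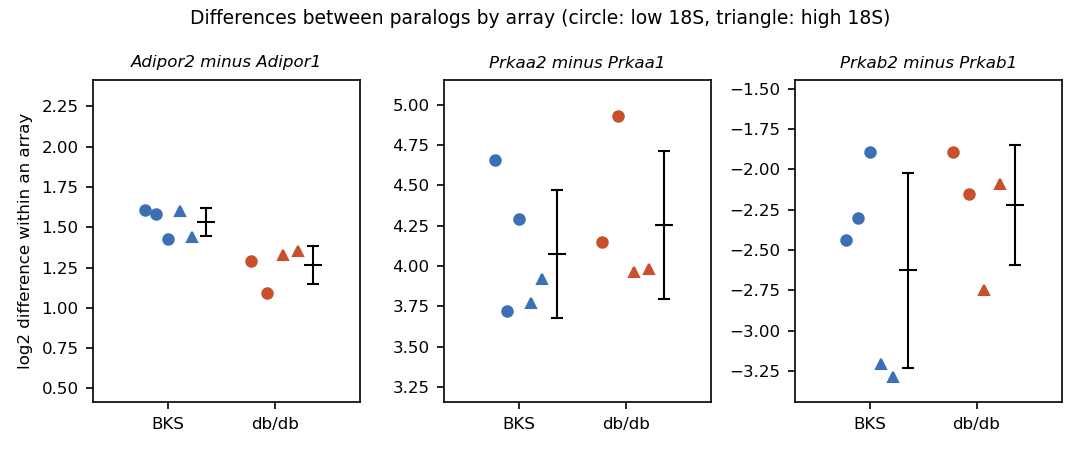
Log2 signal of 1 paralog minus that of the other within each array for 3 pairs, in BKS (blue) and db/db (orange) livers, each panel spanning 2 log2 units, with circles for low and triangles for high 18S arrays and bars for mean ± SD. For the receptors the db/db values, 1.09 to 1.35, all lie below the BKS values, 1.43 to 1.61, and the groups overlap for the catalytic and the beta subunits.

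The catalytic subunits did not pass. Prkaa2, the alpha 2 subunit, had log2 values of 11.56, 11.12, 11.49, 11.20 and 11.41 in BKS and 11.11, 11.25, 11.34 and 11.12 in db/db livers on 1434766_at, with overlapping groups and a fold change of -0.15 (SE 0.12, 95% interval -0.42 to 0.12, limma adjusted p = 0.602). Prkaa1, the alpha 1 subunit, has a single probe set with low signal, 131.2 to 171.6 in BKS and 72.9 to 144.7 in db/db livers in deposited units. Its log2 values were 6.90, 7.40, 7.19, 7.43 and 7.49 in BKS and 6.96, 6.32, 7.38 and 7.13 in db/db livers, a fold change of -0.33 with a wide interval (SE 0.31, 95% interval -0.99 to 0.33, limma adjusted p = 0.647). The lowest of the 9 values was that of db/db 2, and the other three db/db arrays lay within the BKS range. Prkaa2 minus Prkaa1 differed by 0.18 between the genotypes (exact permutation test, two-sided p = 0.524, adjusted p = 0.524).

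Another probe set of Prkaa2, 1429463_at, separated the arrays by the 18S split. Its log2 values were 11.98, 12.43 and 12.19 on BKS 1 to 3 and 11.96 and 12.24 on db/db 1 and 2, all arrays of low 18S signal. On the arrays of high 18S signal they were 8.97 and 8.86 for BKS 4 and 5 and 10.46 and 9.94 for db/db 3 and 4. With genotype in the model the high 18S arrays were 6.31-fold lower (log2 difference -2.66, SE 0.23, limma adjusted p = 3.11e-05), and it was the only 1 of the 19 probe sets to differ between the 18S sets, as 4.92% of all probe sets did. Between genotypes it stood at 0.26 (SE 0.76, adjusted p = 0.924), and at 0.53 with the split as a block (SE 0.23, adjusted p = 0.238). Within the high 18S arrays the db/db mean was 1.28 higher, and 1.34 with an adjusted p of 0.0361 (limma) when these 4 arrays were normalized and fitted alone. Within the low 18S arrays it was 0.10 lower, and the difference between the sets was not tested. The remaining probe set, 1429464_at, which the annotation ties to the same record as 1429463_at, was dim (45.7 to 179.4 in deposited units) and differed by -0.46 between the 18S sets (SE 0.35, limma adjusted p = 0.504). Of 7 markers of macrophages and Kupffer cells 5 were also lower on the high 18S arrays (summed signal 3231 to 7002 against 7790 to 14841), as were 2 of 7 stellate cell and fibroblast markers (3403 to 9526 against 8553 to 14108) and 1 of 6 endothelial markers (1507 to 2388 against 3272 to 3750). Over all 18193 genes 331 were called lower on the high 18S arrays, and no marker of the other lists was called between the 18S sets. The part of macrophages, stellate cells and endothelial cells in the signal of 1429463_at was not tested.

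**Figure D4:**
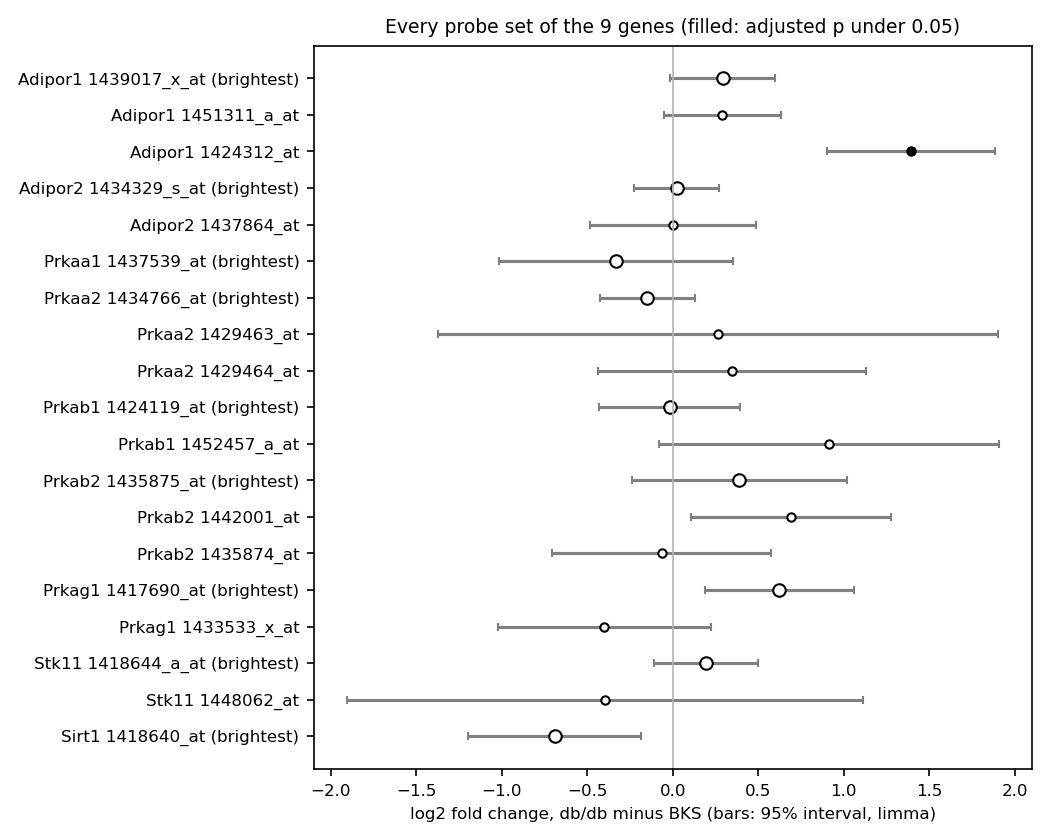
Log2 fold change of db/db minus BKS for the 19 probe sets of the 9 genes, from the fit over all probe sets, with 95% intervals; the larger circle is the probe set of highest mean and a filled circle has an adjusted p under 0.05. Adipor1 1424312_at at 1.39 is the only filled one, and the intervals of Prkaa2 1429463_at and Stk11 1448062_at are the widest.

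The beta subunits were measured by 5 probe sets, and none passed. Prkab1, the beta 1 subunit, had log2 values of 10.20, 9.68, 9.79, 10.13 and 10.25 in BKS and 9.72, 9.72, 10.46 and 10.07 in db/db livers, with db/db 3 the highest of all and the means alike (log2 fold change -0.02, SE 0.19, 95% interval -0.42 to 0.39, limma adjusted p = 0.977). Its dim second probe set, 1452457_a_at, stood at 0.91 with a wide interval (SE 0.46, 95% interval -0.08 to 1.91, adjusted p = 0.397). Prkab2, the beta 2 subunit, had values of 7.76, 7.38, 7.89, 6.92 and 6.96 in BKS and 7.83, 7.57, 7.71 and 7.98 in db/db livers on 1435875_at. BKS 4 and BKS 5, both arrays of high 18S signal, were the lowest, so the difference was 0.91 within the high and 0.02 within the low 18S arrays (0.39 over all arrays, SE 0.29, limma adjusted p = 0.545). On the dim probe set 1442001_at of Prkab2 every db/db array (7.60 to 7.97) lay above every BKS array (6.68 to 7.35). That difference of 0.69 did not pass either (SE 0.27, 95% interval 0.10 to 1.28, limma adjusted p = 0.236), and it was 0.82 within the low and 0.51 within the high 18S arrays. The third probe set, 1435874_at, was at -0.07 (SE 0.30, adjusted p = 0.955). Prkab2 minus Prkab1 differed by 0.41 (exact permutation test, two-sided p = 0.286, adjusted p = 0.429).

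Prkag1, the gamma 1 subunit that binds AMP and ATP, had the smallest adjusted p of the 9 genes. Its log2 values on 1417690_at were 10.49, 10.46, 9.87, 10.12 and 9.94 in BKS livers and 11.14, 11.14, 10.58 and 10.34 in db/db livers. The groups overlapped only through db/db 4, which lay below BKS 1 and BKS 2, and within each 18S set all db/db arrays were above all BKS arrays. The log2 fold change was 0.62, or 1.54-fold (SE 0.20, 95% interval 0.19 to 1.05, limma adjusted p = 0.0980). In the model with the 18S block it was 0.67 and passed (SE 0.15, adjusted p = 0.0162), as the only 1 of the 9 genes, where 8.23% of all genes passed, 4.11% higher and 4.13% lower. The difference was 0.87 within the low and 0.43 within the high 18S arrays. Of the 9 fits with 1 array left out it passed in 1, without db/db 4 (0.77, limma adjusted p = 0.0466), and in the others the adjusted p reached up to 0.257 (0.51, without db/db 1). It did not pass for the low (adjusted p = 0.0753) or the high 18S arrays alone (0.296). The dimmer probe set 1433533_x_at pointed the other way and did not pass (-0.40, SE 0.29, 95% interval -1.02 to 0.22, limma adjusted p = 0.596), so the average of both probe sets was 0.11 (adjusted p = 0.845).

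The genes whose signal over the 9 arrays was most like that of Prkag1 were Mon1a (Pearson r = 0.961, Spearman rho = 0.900), Alg5 (0.956 and 0.917) and Dzip1l (0.950 and 0.933). These values describe 9 arrays that share the genotype and 18S splits, and they are the highest among all genes by choice. None of these genes passed between genotypes (log2 fold changes 0.26, 0.40 and 0.53, limma adjusted p = 0.344, 0.101 and 0.391).

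Stk11, which encodes the AMPK kinase LKB1, did not pass. Its log2 values on 1418644_a_at were 10.28, 10.68, 10.37, 10.22 and 10.70 in BKS and 10.58, 10.67, 10.69 and 10.64 in db/db livers. The db/db arrays lay close together inside the BKS range, and the fold change was 0.19 (SE 0.14, 95% interval -0.10 to 0.49, limma adjusted p = 0.518). The second probe set, 1448062_at, was near the bottom of the scale on most arrays (6.10 to 182.8 in deposited units) and had a wide interval around -0.40 (SE 0.70, 95% interval -1.91 to 1.12, adjusted p = 0.868).

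Sirt1 had the largest fold change of the 9 genes on the probe sets of highest mean. Its single probe set read 9.54, 8.53, 9.30, 9.08 and 8.63 in BKS livers and 8.55, 8.20, 8.16 and 8.40 in db/db livers on the log2 scale, or 357.9 to 732.4 and 246.6 to 367.5 in deposited units. The groups overlapped only through BKS 2 at 8.53, which lay below db/db 1 at 8.55. The log2 fold change was -0.69 (1.61-fold, SE 0.23, 95% interval -1.20 to -0.18) and did not pass (limma adjusted p = 0.121). In the model with the 18S block it was -0.67 (adjusted p = 0.0926), and it was -0.75 within the low and -0.57 within the high 18S arrays. The adjusted p stayed above the threshold under all 24 alternatives run (0.0624 to 0.425), with log2 fold changes from -0.82 to -0.57.

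The other genes of the pathway were read from 10 lists. These lists were chosen with earlier results of these data known, so the share called in them cannot be read as an excess over all genes. Of 77 measured genes 10 rose and 1 fell, 14.3% together with the background at 5.49%, and the median log2 fold change was 0.21, beside 0.00 over all genes. That background includes many dim genes. With a filter that kept only genes above the median signal, 1213 of 9096 genes passed over all, and 14 pathway genes passed. How many of the 77 pathway genes the filter kept was not counted, so the 14 cannot be given as a share. With 1 array left out the count of 11 dropped to between 4 and 10, lowest without db/db 3 (4) and BKS 3 (5), and it was 6 when BKS 1, db/db 1 or db/db 4 was left out and 7 without BKS 4 or db/db 2. In the model with the 18S block 13 passed, while the share over all genes went to 8.23%. The calls added by the block were Flcn (-0.81, limma adjusted p = 0.0455) and the AMPK substrate Ppargc1a (0.74, adjusted p = 0.0377). Without the block Ppargc1a stood at 0.71 (limma adjusted p = 0.0907). Each of the 11 calls was lost under at least 1 of 15 other settings that kept all arrays or took 1 set of them by 18S signal: Nampt kept its call under 14, Nmrk1 under 13, Mmd2 under 12, Acaca and Sirt3 under 11, Acer2 and Gys2 under 9, Crtc2 and Paqr9 under 8, and Mff and Prkag2 under 7. In the test over all probe sets no probe set of Paqr9, Prkag2, Gys2, Crtc2 or Mff passed, while each of the other called genes had 1 that did. Appl2 and Camkk1 were not analysed here.

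Upstream and beside the 9 genes, adiponectin itself and its receptor adaptors did not pass (0 of 3 measured, the smallest adjusted p being that of Appl1, an adaptor that binds the receptors, at -0.28, SE 0.19, limma adjusted p = 0.519). Among 9 other members of the PAQR family 2 rose: Mmd2 (3.76-fold, SE of the log2 fold change 0.43, limma adjusted p = 0.0184, held in 8 of 9 fits with 1 array left out) and Paqr9 (1.40-fold, SE 0.12, adjusted p = 0.0376, held in 3 of 9). The other probe set of Paqr9 stood at -0.08. Of 5 genes that free sphingosine from ceramide, Acer2, the alkaline ceramidase 2, rose (1.70-fold, SE 0.19, adjusted p = 0.0337, held in 1 of 9), while its other probe set was at -0.25.

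The gamma 2 subunit gene Prkag2 rose by 0.73 on the log2 scale, or 1.66-fold. Its values were 8.52, 9.17, 8.43, 8.51 and 8.96 in BKS and 9.36, 9.41, 9.56 and 9.46 in db/db livers, with every db/db array above every BKS array (SE 0.19, limma adjusted p = 0.0418). Its 4 probe sets ran from 0.24 to 0.73, and the call held in 2 of 9 fits with 1 array left out. Prkag3, the gamma 3 subunit of skeletal muscle, was dim and did not pass (-0.68, SE 0.42, adjusted p = 0.449). None of 8 genes of the LKB1 complex and other AMPK kinases passed (limma, 4 at an unadjusted p under 0.05), with Cab39, which encodes the LKB1 partner MO25, at 0.44 (SE 0.14, adjusted p = 0.0995). None of 13 AMPK-related kinases passed (limma, 1 at an unadjusted p under 0.05, Snrk at 0.36, SE 0.15, adjusted p = 0.231). In the test over all probe sets, however, 1 of 2 probe sets of Snrk passed (range 0.36 to 0.57), as did 1 of 4 of Sik3 (range -0.26 to 1.10), and Snrk passed with its probe sets averaged (0.46, limma adjusted p = 0.0494). Sik3 was named after its values were seen. Among 8 sestrins and lysosomal regulators none passed (limma, 2 at an unadjusted p under 0.05), and Flcn, which encodes folliculin, was at -0.79 on an _x_at probe set (SE 0.24, adjusted p = 0.0827, and 0.0455 in the model with the 18S block). Its 3 probe sets ran from -0.79 to -0.10, and Flcn stood at -0.10 without _x_at, _s_at and _a_at probe sets (adjusted p = 0.903) and at -0.38 with all averaged (adjusted p = 0.459).

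**Figure D5:**
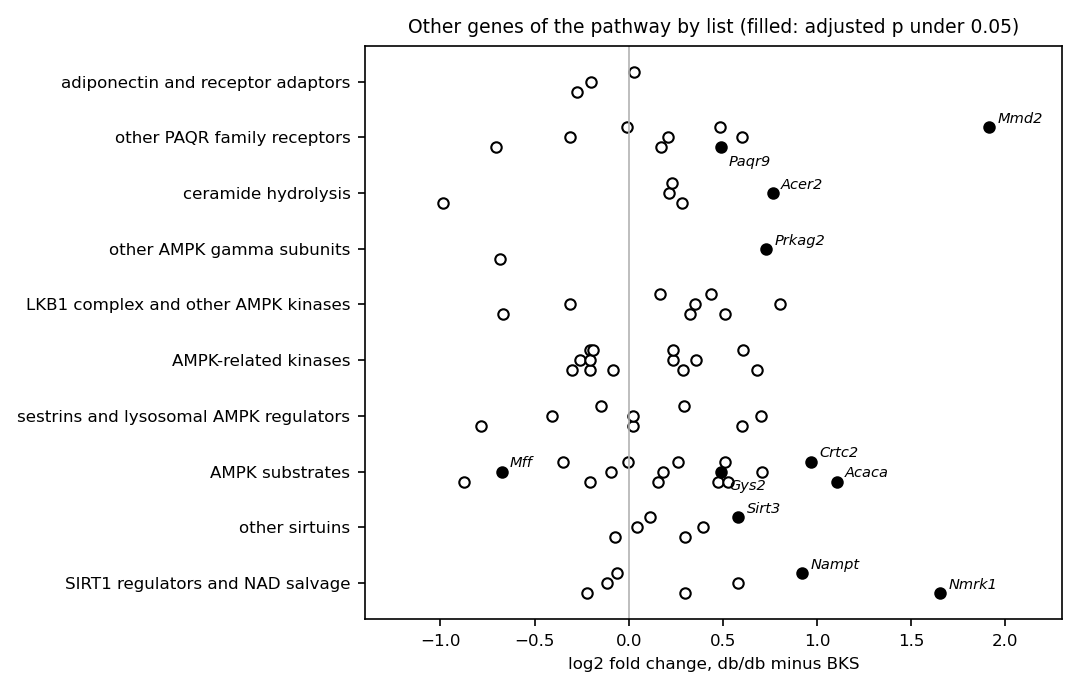
Log2 fold change of db/db minus BKS for 77 other genes of the pathway, 1 circle per gene, in the 10 lists named on the left; filled circles have an adjusted p under 0.05 and are named. Of the 11 filled circles 10 lie right of 0 and Mff lies left of it.

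Among 16 measured genes whose proteins AMPK phosphorylates 3 rose and 1 fell. Acaca, acetyl-CoA carboxylase 1 of fatty acid synthesis, rose 2.15-fold (SE 0.21, limma adjusted p = 0.00730), from 10.29 to 10.65 over the BKS arrays to 10.80 to 12.16 over the db/db arrays on the log2 scale, and held in all 9 fits with 1 array left out. Its call was lost with the probe set of largest variance (0.85, limma adjusted p = 0.687), with averaged probe sets (0.98, 0.117), without an intensity trend (1.10, 0.0545) and for low 18S arrays alone (0.79, 0.111). Gys2, liver glycogen synthase, rose 1.41-fold (SE 0.13, adjusted p = 0.0419) and Crtc2, a coactivator of glucose production genes, 1.95-fold (SE 0.26, adjusted p = 0.0467). The log2 signal of Mff, which helps divide mitochondria, fell by 0.68 with an SE of 0.17 (adjusted p = 0.0398), and its 4 probe sets ran from -0.68 to 0.14. The calls of Gys2, Crtc2 and Mff each held in 2 of 9 fits with 1 array left out.

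Of 6 other sirtuins Sirt3, the main mitochondrial deacetylase, rose by 0.58 on the log2 scale. Its log2 values were 11.09, 11.48, 11.55, 11.45 and 11.31 in BKS and 11.90, 12.04, 11.83 and 12.05 in db/db livers, without overlap (SE 0.12, limma adjusted p = 0.0114). Of 7 regulators of SIRT1 and genes of NAD salvage 2 rose and none fell. Nampt, which makes the NAD precursor nicotinamide mononucleotide, read 10.35, 10.67, 10.59, 10.30 and 10.33 in BKS and 11.58, 11.34, 11.23 and 11.34 in db/db livers, a 1.90-fold rise (SE 0.13, adjusted p = 7.89e-04). Nmrk1, the nicotinamide riboside kinase, read 7.52, 7.70, 7.99, 7.77 and 8.29 in BKS and 9.67, 9.05, 9.60 and 9.71 in db/db livers, a 3.14-fold rise (SE 0.22, adjusted p = 6.50e-04). All db/db arrays were above all BKS arrays for both genes, and the calls of Sirt3, Nampt and Nmrk1 held in all 9 fits with 1 array left out. With the probe set of largest variance the calls of Nmrk1 (0.19, limma adjusted p = 0.937) and Nampt (0.93, adjusted p = 0.237) were lost, and with averaged probe sets that of Nmrk1 (0.89, adjusted p = 0.150). Sirt3 lost its call with median centring (adjusted p = 0.0991), without an intensity trend (0.0894) and for low (0.130) or high 18S arrays (0.0965) alone. The 3 probe sets of Nmrk1 ran from 0.19 to 1.65 and those of Nampt from 0.54 to 0.93, with 1 of 3 called for each gene in the test over all probe sets.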

How the data were processed

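Liver RNA was biotin-labelled for single-colour Affymetrix arrays, per the labels' protocols. The table deposited by the authors holds 1 linear intensity per probe set and array. How they were computed is not given in the sources used here. The trimmed mean of the deposited intensity was 500.003 to 500.005 on every array. There are no detection calls.

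The intensities were transformed as log2(value + 16), which compresses changes of dim genes, and quantile normalized because the array medians spanned 0.60 (limit 0.25). Genes were tested with limma 3.58.1 in R 4.3.3 (lmFit, eBayes with an intensity trend, two-sided, Benjamini-Hochberg over 18193 genes or 34945 probe sets). The probe set of a gene, that of highest mean, was kept in all fits except those that changed this rule. Paralogs were compared by an exact permutation test. The steps were tested on simulated data.

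The text names all 9 genes and, from each pathway list, the called genes of smallest adjusted p, up to 2 per direction, or the gene of smallest adjusted p where none was called. Crtc2, Ppargc1a and Prkag3 were added after their values were seen. The 3 genes most like Prkag1 followed a fixed rule. The genes and lists were chosen with earlier results of these data known, including the 18S split. Alternatives changed 1 choice at a time: normalization, pseudocount, a filter on dim genes, probe set rule, eBayes settings, array weights, blocks and arrays left out. The runs for pathway genes and the paralog differences within each 18S set were chosen after seeing the data.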

Additional observations from a re-analysis of the deposited data

Results flagged for a closer look

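On probe set 1448062_at of Stk11, the dim second probe set of that gene, db/db 3 stood at 7.73 on the log2 scale, apart from the other db/db arrays at 4.62 to 4.82. Its gap to the nearest array was 0.934 of the range of the group, above Dixon's 95% limit for 4 samples. It was the only such value among 38 groups of arrays looked at (19 probe sets in both genotypes), where chance flags about 1 in 20. The bright probe set of Stk11 showed no such gap.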

How the results depend on the processing

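Over all genes 999 passed; the count was 535 (323 higher, 212 lower) with median centring, 630 with the probe set of largest variance, 466 without an intensity trend, 436 for low and 465 for high 18S arrays alone, and 592 to 929 with 1 array left out, lowest without db/db 3. Of the 9 genes none passed, and 1 did with the probe set of largest variance, averaged probe sets and without _x_at, _s_at and _a_at probe sets (Adipor1 each time), and with the 18S block and the replicate block (Prkag1 each time), and 0 to 1 with 1 array left out. Of the 19 probe sets 1 passed, against 2 with the 18S block, 0 for low and 2 for high 18S arrays alone, and 1 in each fit with 1 array left out. Of the pathway genes 11 passed, against 4 with median centring, 7 without further normalization, 3 with the probe set of largest variance, 5 with averaged probe sets, 2 without an intensity trend, 3 for low and 4 for high 18S arrays alone, and 4 to 10 with 1 array left out.

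Signs turned as follows. Prkab1 went to 0.05 with median centring, 0.91 and 0.45 with the probe set of largest variance and averaged ones, 0.08 in the high 18S arrays, 0.04 with the replicate block and, leaving out BKS 1, BKS 4, BKS 5, db/db 1 or db/db 2, to 0.03, 0.01, 0.04, 0.07 and 0.07 (-0.17 to 0.07 over the 9 fits with 1 array left out, and -0.02 with all arrays). Adipor2 went to -0.17 in the high 18S arrays and, leaving out BKS 3, db/db 1 or db/db 2, to 0.00, -0.02 and -0.04. With the probe set of largest variance and with averaged ones Prkaa2 went to 0.26 and 0.15 and Stk11 to -0.40 and -0.10, and Stk11 stood at -0.40 without _x_at, _s_at and _a_at probe sets. Under the rule of largest variance Paqr9 stood at -0.08, and Mff at 0.14 without the _x_at, _s_at and _a_at ones. The cause was not tested beyond the change of probe set.

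Adipor2 minus Adipor1 stood at -0.27 without quantile normalization (median centring cannot change it) and at -1.39 under the rule of largest variance and without _x_at, _s_at and _a_at probe sets, past the threshold in none of these (adjusted p = 0.0952 to 0.286, exact permutation test). With averaged probe sets it was -0.65 and passed (adjusted p = 0.0476, exact permutation test). With 1 array left out it was -0.30 to -0.21 and passed in no fit (adjusted p = 0.0857 to 0.107, exact permutation test). With 8 arrays even the smallest possible p of 1 pair does not pass this adjustment when the other pairs have large p-values. Prkaa2 minus Prkaa1 was -0.04 to 0.33 with 1 array left out, turning to -0.04 without db/db 2. Prkab2 minus Prkab1 was -0.22 with the probe set of largest variance, -0.11 with averaged ones and 0.24 to 0.59 with 1 array left out. Within the 18S sets no paralog difference turned.

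Equal replicate numbers were not taken as pairs: deviations of same-numbered arrays correlated at 0.031, 0.174, -0.070 and 0.129. With the replicate block Prkag1 was at 0.56 (adjusted p = 0.0435) and 1 of the 9 genes passed. Dim probe sets such as those of Prkaa1 limit what can be seen, since no detection calls show what lies above background.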
